A study of Mus musculus with 12 samples.

Results

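The proteasome subunit genes were described in fully grown mouse oocytes of 3 Marf1 genotypes. Members were all gene symbols in the FPKM table made of Psm, a letter from a to g, a number and any further letters, which gave 50 of 24254 genes. Of the 50 members, 45 reached 1 FPKM (fragments per kilobase, normalised to the size of the library) in at least 1 library and were tested. The other 5, Psma8, Psmb8, Psmb9, Psmb10 and Psme1, stayed below 1 FPKM in every library. The symbol rule also took in Psmc3ip, which is known as a partner of the meiotic recombinases and is not a proteasome subunit. Its values are given apart, but it stays among the 45 tested members and in their counts and medians below. Without it, and without chaperones, activators and tissue-restricted variants, 31 members encode the core and regulatory particles.

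MARF1 binds RNA, and oocytes without it do not resume meiosis. The study sequenced RNA of germinal vesicle oocytes, which are arrested before the first meiotic division, from Marf1 wildtype mice (WT), from mice with a gene trap in Marf1 (GTMut) and from mice with a Marf1 mutation named D272 (D272Mut). All 3 genotypes were on the C57BL/6 strain, were 3 weeks old and had received 5 IU of the gonadotropin PMSG 46 h earlier. Each genotype had 4 libraries, and each library pooled the RNA of 80 oocytes. Zygosity, and whether each library came from its own mice, are not stated, so the p-values measure only the spread between these libraries, which may be technical. The sources conflict in places, since the labels also name lysed ovaries and single-cell amplification. Below, where 3 values follow each other without names they stand for WT, GTMut and D272Mut in that order, and pairs of changes stand for GTMut and D272Mut against WT.

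Marf1 itself checked the labels. Its levels were 25.8 ± 0.63, 1.43 ± 0.13 and 53.1 ± 1.0 FPKM (SD, n = 4), with log2 fold changes against WT of -3.46 ± 0.05 and 1.01 ± 0.05 (limma fit, SE). As a share of the deepest library, depth ranged from 0.613 to 0.944, 0.556 to 1 and 0.444 to 0.837, and absolute depth is unknown. Libraries of a genotype correlated at 0.965 to 0.990 across genes. Of the 10 oocyte markers all were detected, and their summed level was 10903 to 11013, 9149 to 9544 and 8769 to 8868 FPKM. Gdf9 held 5592, 4544 and 4319 FPKM of that sum. Kit fell from 99.9 to 26.4 and 34.7 FPKM (log2 fold changes -1.88 and -1.51). Oosp1 fell from 589 to 279 and 357 FPKM (-1.07 and -0.72). Zp1, Zp2, Zp3 and Gdf9 also fell in both mutants, Bmp15 only in D272Mut and Figla only in GTMut. Npm2 and Dppa3 were not called in either. The 12 granulosa and cumulus markers summed to 45.8 to 50.3, 147 to 162 and 142 to 144 FPKM, of which Nr5a2 held 26.5, 134 and 118 and Kitl 2.63, 11.7 and 11.6, while Amh had means of at most 1.39. Inhba also rose, with means of 0.111, 1.79 and 0.999 FPKM (log2 fold changes 1.32 and 0.80). It reached 1 FPKM in mutant libraries only, so the filter favoured a rise. Some granulosa markers moved down. Cyp19a1 fell from 11.7 FPKM in WT to 4.90 and 6.53 (log2 fold changes -1.11 and -0.76). Fshr fell from 0.996 to 1.53 in WT libraries to at most 0.308 and 0.520, and Ptgs2 from 0.974 to 1.21 to at most 0.0989 and 0.238. Fshr and Ptgs2 reached 1 FPKM in WT libraries only, so the filter favoured a fall. Inha and Hsd17b1 were not called in either mutant, and Amh was called only in GTMut, as lower. The 7 theca and stroma markers summed to at most 2.77 FPKM in any library, with Cyp17a1 at 0 in all mutant libraries. The 8 leukocyte markers summed to 21.8 to 25.9, 14.4 to 19.998 and 50.02 to 67.7 FPKM, of which C1qb held 18.3, 14.5 and 40.0 and Cd3e was at 0 throughout. C1qb was called lower in GTMut and higher in D272Mut. Also called higher in D272Mut were C1qa, Lyz2 and Cd74, with means of 2.45, 5.51 and 3.42 FPKM beside 0.281, 1.13 and 0.626 in WT. C1qa reached 1 FPKM in D272Mut libraries only, so the filter favoured a rise, and libraries of Lyz2 and Cd74 overlapped WT. H2-Aa was called lower in GTMut, and Cd68 was not called in either mutant. The part of these markers in the results below was not tested. FPKM is a share of a library, so fewer cells of a type and less RNA per cell cannot be told apart.

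The proteasome degrades proteins that carry ubiquitin chains. Its core particle is a barrel of alpha and beta rings, and 3 beta subunits hold the proteolytic sites: Psmb6 the caspase-like, Psmb7 the trypsin-like and Psmb5 the chymotrypsin-like site. The regulatory particle caps the barrel. Its base holds the ring of Psmc ATPases that unfolds substrates and the ubiquitin receptors, and its lid holds Psmd14, the enzyme that removes the ubiquitin chain. Meiosis depends on the proteasome, since cyclin B and securin are destroyed by it as the oocyte divides.

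Proteasome genes did not move together in the mutants: in each, some rose and more fell. Among the 45 tested members, 12 rose and 22 fell in GTMut against WT, and 11 did not pass the test (limma on log2(FPKM + 1), adjusted p under 0.05 over 12980 genes). Across all tested genes 77.5% were called, 38.3% higher and 39.2% lower, and of the members 75.6% were called, 26.7% higher and 48.9% lower. The share of members called was near the background, and the members' median log2 fold change was -0.17 beside -0.02 over all tested genes. In D272Mut against WT, 12 members rose, 22 fell and 11 did not pass, against a background of 75.7% called, 36.3% higher and 39.5% lower. There the members' median log2 fold change was -0.24 beside -0.05 over all genes. The falls in both mutants include Psmc3ip, which is not a proteasome subunit. Of the 31 genes of the core and regulatory particles, 6 rose and 17 fell in GTMut, and 6 rose and 18 fell in D272Mut. Libraries of the compared genotypes did not overlap for 33 members in GTMut (12 higher and 21 lower). In D272Mut they did not overlap for 32 (12 higher and 20 lower). Of all genes 72.9% (36.4% higher and 36.5% lower) and 69.1% (33.8% higher and 35.3% lower) did not overlap. Counts by role below stand beside these background shares.

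On the log2(FPKM + 1) scale more members rose 2-fold than fell 2-fold, as among all tested genes. In both directions the share of members was below that of all genes. In GTMut, 5 members rose at least 2-fold on that scale and 0 fell by as much, where 19.3% of all genes rose and 9.61% fell that far. In D272Mut 4 members rose at least 2-fold on that scale and 0 fell, with 17.9% and 5.9% of all genes doing so. By the ratio of mean FPKM the counts of rises were also 5 and 4, and 1 member, Psmc3ip, fell by more than 2-fold in D272Mut (ratio 0.475). Both comparisons use the same WT libraries. Side by side, 11 members were higher in both, 20 were lower in both, 9 passed in neither, and 5 differed in their call. The 9 that passed in neither were Psma1, Psma3, Psma5, Psma6, Psmb3, Psmc6, Psme2, Psme4 and Psmg4. Quantile normalization moved the median of all genes to -0.23 in GTMut and -0.25 in D272Mut, and then called 10 members higher and 27 lower in each. Under it 39.2% and 37.4% of all called genes were higher, beside 49.4% and 47.9% without it.

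**Figure D1:**
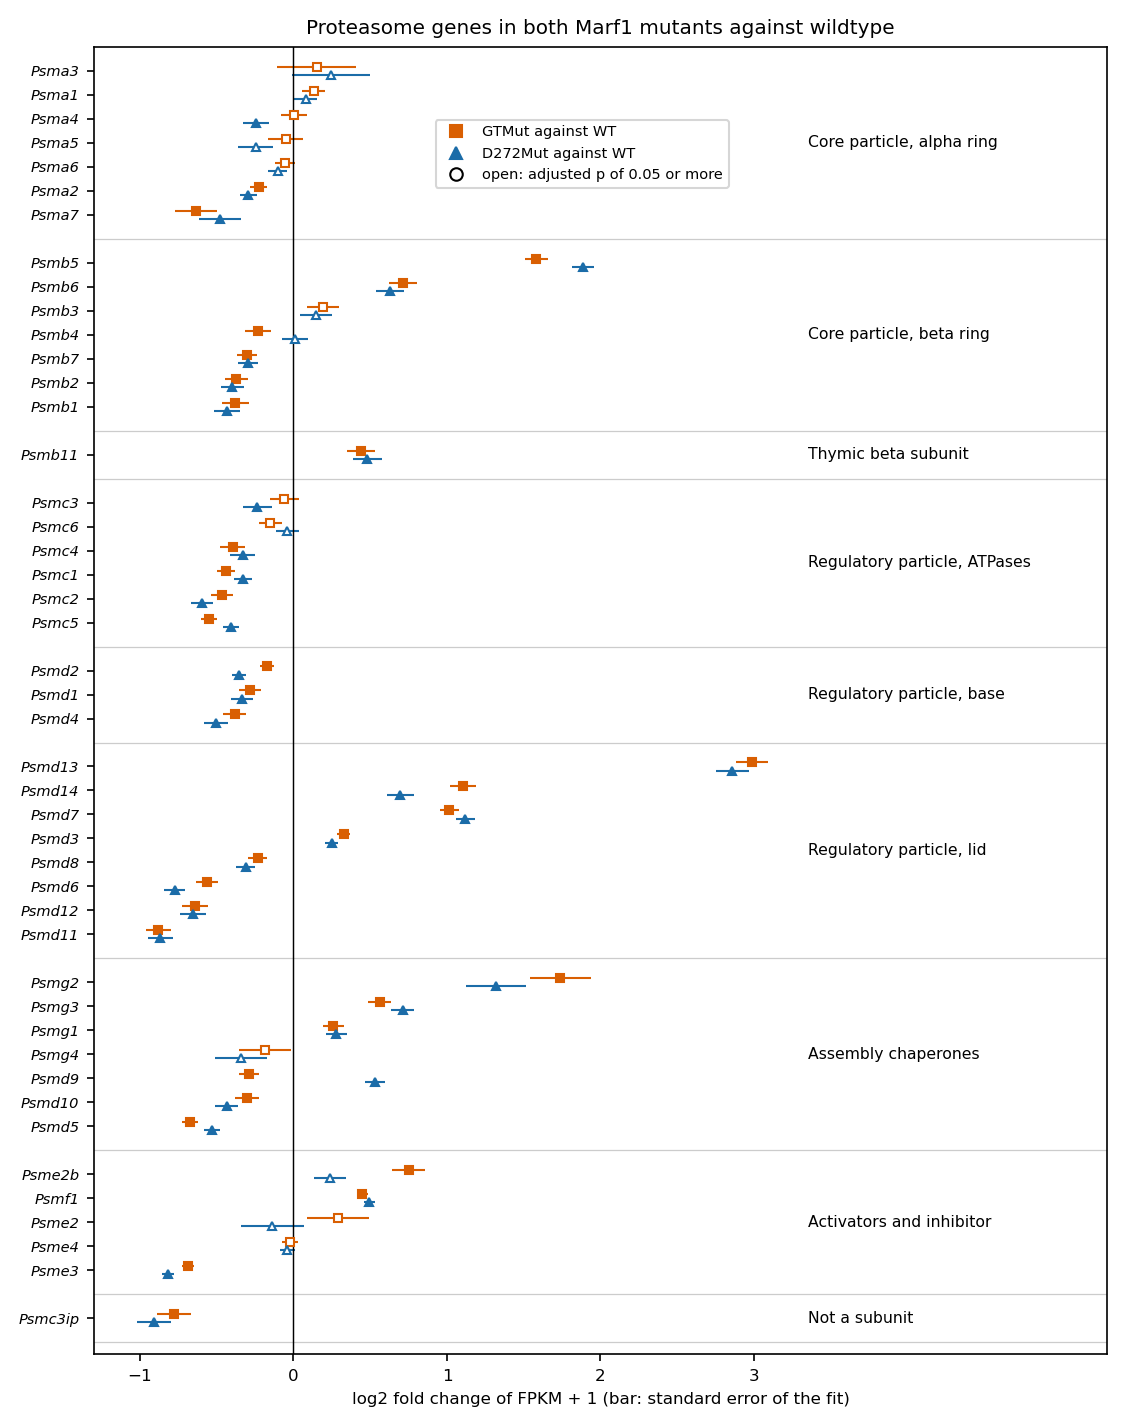
Log2 fold change of FPKM + 1 against WT for the 45 tested members, by role, in GTMut (squares) and D272Mut (triangles), with the standard error of the limma fit as bars; open symbols did not pass an adjusted p of 0.05. All called ATPase and base genes lie left of 0, while Psmb5 (1.58 and 1.89) and Psmd13 (2.99 and 2.86) lie far to the right and Psmd9 has its symbols on opposite sides.

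The summed level of the complex overlapped between genotypes while those of its parts diverged. The 31 subunit genes together gave 1029 ± 26, 1056 ± 14 and 1065 ± 63 FPKM (SD, n = 4), with overlapping ranges in all 3 genotypes. The 7 alpha genes summed to 238 ± 14, 215 ± 9.4 and 204 ± 15 FPKM. The 7 beta genes summed to 277 ± 7.3, 343 ± 1.8 and 378 ± 36 FPKM, and both mutants lay wholly above WT. Psmb5 alone held 42.5, 129.5 and 161 FPKM of the beta sum, and in each mutant it gained more than that sum did. The total of the 31 genes includes this gain. For the 6 ATPase genes the sums were 161 ± 3.8, 122 ± 2.1 and 126 ± 5.2 FPKM, and both mutants lay wholly below WT. The 11 other genes of the regulatory particle summed to 353 ± 7.8, 376 ± 6.5 and 357 ± 13 FPKM.

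Promoters are printed for 4 members, Psmb5 and Psmb6 among the rises and Psmd11 and Psme3 among the falls. They were chosen after changes and motif matches were seen, as changed members with a match, and do not stand for the members with the largest changes. Each is the 250 bases before the RefSeq start of the gene, read 5′ to 3′ on the gene's strand of the mouse build GRCm38.p6. They lie at chr14:54617996-54618245 on the minus strand for Psmb5, and on the plus strand at chr11:70525107-70525356 for Psmb6, chr11:80428365-80428614 for Psmd11 and chr11:101315963-101316212 for Psme3. Capitals mark matches, on either strand, to TGACNNNGC (the core of the antioxidant response element, to which the Nfe2l1 and Nfe2l2 factors bind), to CCAAT (the CCAAT box) or to CCGGAAG (a site of ETS-type factors).
Psmb5: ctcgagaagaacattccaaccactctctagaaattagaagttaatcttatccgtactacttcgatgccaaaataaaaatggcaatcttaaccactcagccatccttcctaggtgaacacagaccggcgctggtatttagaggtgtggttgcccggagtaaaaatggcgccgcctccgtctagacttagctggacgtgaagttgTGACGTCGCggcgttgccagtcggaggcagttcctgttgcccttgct
Psmb6: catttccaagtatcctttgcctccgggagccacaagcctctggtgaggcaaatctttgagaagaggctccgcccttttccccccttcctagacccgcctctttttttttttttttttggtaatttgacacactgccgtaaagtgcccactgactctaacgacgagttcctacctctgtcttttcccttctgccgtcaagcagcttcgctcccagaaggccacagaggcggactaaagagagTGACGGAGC
Psmd11: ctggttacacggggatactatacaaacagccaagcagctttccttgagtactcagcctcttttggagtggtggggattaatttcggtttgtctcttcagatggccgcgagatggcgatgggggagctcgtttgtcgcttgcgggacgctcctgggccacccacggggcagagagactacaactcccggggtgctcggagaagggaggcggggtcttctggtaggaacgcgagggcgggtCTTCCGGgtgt
Psme3: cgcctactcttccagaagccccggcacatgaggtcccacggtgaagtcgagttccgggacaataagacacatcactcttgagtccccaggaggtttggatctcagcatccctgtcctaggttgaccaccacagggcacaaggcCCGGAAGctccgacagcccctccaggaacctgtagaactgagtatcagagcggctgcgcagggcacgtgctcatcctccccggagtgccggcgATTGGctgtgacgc
The TGACNNNGC match began 47 bases before the start in Psmb5 and 9 bases before it in Psmb6. Psmd11 had CCGGAAG on the minus strand 11 bases before the start. Psme3 had CCGGAAG 107 bases and CCAAT, on the minus strand, 14 bases before the start. No match overlapped another in these windows.

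Windows could be matched for 35 members, Psmc3ip among them. TGACNNNGC was present in 5 of them (14.3%), namely Psmb5, Psmb6, Psmc6, Psmd12 and Psmd9, beside 12.2% of 8944 windows of tested genes. CCAAT was present in 12 of 35 (34.3%) beside 37.2% of all windows. CCGGAAG was present in 11 of 35 (31.4%) beside 14.1% of all windows. Of the 18 members with a window that fell in GTMut, 8 held CCGGAAG, Psmc3ip among them, and of the 8 that rose only Psmg1 did. Over all tested genes the letters occurred in 13.3% of windows of genes that fell and 14.7% of those that rose. These matches describe letters in a window and were not tested as sites.

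Of the alpha ring genes, which build the gate of the core particle, 0 of 7 rose and 2 fell in GTMut, and 0 rose and 3 fell in D272Mut. Psma7, the alpha subunit of most tissues that Psma8 replaces in the testis, read 47.1, 47.9, 53.9 and 52.6 FPKM in the WT libraries, 28.3, 29.0, 34.7 and 37.1 in GTMut and 44.0, 32.6, 26.6 and 43.0 in D272Mut. All mutant libraries were below all WT libraries, and the D272Mut libraries were spread widely. Its log2 fold change was -0.63 ± 0.14 in GTMut (adjusted p = 0.000838) and -0.48 ± 0.14 in D272Mut (adjusted p = 0.00631). Psma8 was listed at 0 in 1 WT library, 3 GTMut libraries and all 4 D272Mut libraries, and reached at most 0.152 FPKM, so the testis variant was at most 0.410% of the sum of the pair in any library.

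Psma2 fell from 47.8 ± 4.4 FPKM in WT to 40.6 ± 0.94 in GTMut and 38.7 ± 0.84 in D272Mut (log2 fold changes -0.23 ± 0.06 and -0.29 ± 0.06). Psma4 passed the test only in D272Mut, with 54.9 ± 5.4, 55.0 ± 5.7 and 46.1 ± 3.4 FPKM, and not without WT replicate 3 or D272Mut replicate 2. It has a near-identical processed pseudogene and shares exon sequence with AY074887 on the opposite strand. The direct comparison of the mutants also called Psma4 (log2 fold change -0.25 ± 0.08, adjusted p = 0.031), with overlapping libraries, a call lost in 6 of 20 alternatives. Psma1, Psma5 and Psma6 had log2 fold changes between -0.25 and 0.13 that did not pass, and Psma5 has 2 near-identical copies. Psma3 had the lowest alpha level, 1.54 ± 0.79 FPKM in WT, and has 4 near-identical copies elsewhere in the genome, between which its reads could have been divided.

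The 3 proteolytic genes of the beta ring went different ways, and Psmb5 changed most. Psmb5 lies at chr14:54614119-54618022 on the minus strand of mm10 and is protein coding. It read 40.6, 41.1, 44.2 and 44.2 FPKM in the WT libraries, 119.9, 125, 140.2 and 132 in GTMut, and 184, 146, 145 and 167 in D272Mut. The genotypes did not overlap at any point, with WT lowest and D272Mut highest. Means rose 3.04-fold in GTMut (log2 fold change 1.58 ± 0.07, adjusted p = 1.1e-10) and 3.78-fold in D272Mut (1.89 ± 0.07, adjusted p = 1.96e-11). The mutants also differed from each other by 0.30 ± 0.07 on the log2 scale (adjusted p = 0.00505). A processed pseudogene, Gm3375, is 98.869% identical to Psmb5 over 796 bases, so some of its reads could not be placed by sequence alone.

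Psmb6 read 25.1, 19.8, 27.8 and 24.7 FPKM in WT, 41.8, 41.0, 38.3 and 40.3 in GTMut, and 41.2, 37.6, 32.9 and 40.9 in D272Mut. Every mutant library was above every WT library, and the mutants overlapped. The rise was 0.71 ± 0.09 on the log2 scale in GTMut (adjusted p = 6.57e-06) and 0.63 ± 0.09 in D272Mut (adjusted p = 2.45e-05). Psmb7 read 46.5, 49.7, 50.5 and 47.6 FPKM in WT, 44.1, 38.5, 38.5 and 36.0 in GTMut, and 41.4, 38.6, 35.9 and 42.0 in D272Mut. It was the proteolytic gene that fell, with all mutant libraries below WT and log2 fold changes of -0.30 ± 0.06 (adjusted p = 0.000639) and -0.29 ± 0.06 (adjusted p = 0.000865). Psmb7 shares exon sequence with Nek6 on the opposite strand, and Nek6 rose from 0.779 ± 0.17 FPKM in WT to 4.34 ± 0.63 in GTMut and 2.39 ± 0.33 in D272Mut.

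As a ratio within each library, Psmb5 over Psmb7 was 0.876 ± 0.042, 3.33 ± 0.45 and 4.06 ± 0.28. Psmb6 over Psmb7 was 0.502 ± 0.070, 1.03 ± 0.075 and 0.964 ± 0.035. In WT the order of the levels, with no overlap, was Psmb7, Psmb5 and Psmb6, and in both mutants Psmb5 stood far above the other proteolytic genes, whose libraries overlapped each other.

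**Figure D2:**
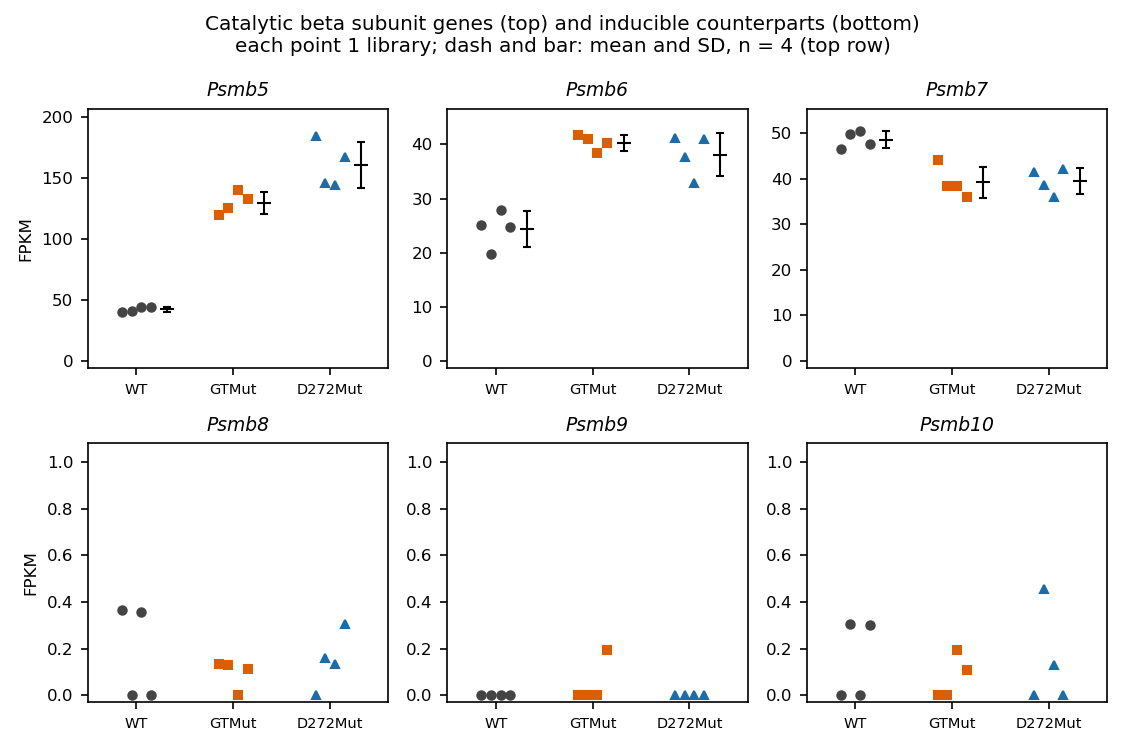
FPKM of the proteolytic subunit genes Psmb5, Psmb6 and Psmb7 (top) and of their inducible counterparts Psmb8, Psmb9 and Psmb10 (bottom, on a scale to about 1 FPKM), each point 1 library, with mean and SD beside the points of the top row. Psmb5 and Psmb6 are higher and Psmb7 is lower in all mutant libraries, and no library of any genotype exceeds 0.457 FPKM in the bottom row.

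The inducible counterparts, which replace the proteolytic subunits in immune cells, were at or near 0. Psmb8, the counterpart of Psmb5, read 0.367, 0, 0.357 and 0 FPKM in WT, 0.133, 0.130, 0 and 0.112 in GTMut, and 0, 0.160, 0.135 and 0.307 in D272Mut. Psmb9, the counterpart of Psmb6, was listed at 0 in 11 of 12 libraries and at 0.194 FPKM in GTMut replicate 4. Psmb10, the counterpart of Psmb7, read 0, 0.304, 0 and 0.301 FPKM in WT, 0, 0, 0.193 and 0.107 in GTMut, and 0, 0.457, 0.128 and 0 in D272Mut. No counterpart made up more than 1.17% of the sum with its constitutive gene in any library, and all genotypes overlapped.

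Psmb11, the beta subunit known from the thymic cortex, was low but above the filter. It read 1.13, 1.22, 1.24 and 1.05 FPKM in WT, 1.70, 2.06, 2.10 and 1.89 in GTMut, and 1.88, 2.29, 1.76 and 2.16 in D272Mut. All mutant libraries exceeded all WT libraries, and the log2 fold changes were 0.44 ± 0.09 (adjusted p = 0.000604) and 0.48 ± 0.09 (adjusted p = 0.000314). Under quantile normalization the calls were lost (0.15, adjusted p = 0.145 and 0.19, adjusted p = 0.0713). Psmb11 is the nearest member to Psmb5, 3411 bases away on chromosome 14 and on the other strand.

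Of the 4 structural beta genes, Psmb1 and Psmb2 fell in both mutants. Psmb1 went from 37.4 ± 1.4 FPKM in WT to 28.6 ± 1.6 and 27.6 ± 4.2, and Psmb2 from 61.8 ± 3.1 to 47.5 ± 2.8 and 46.9 ± 5.6, with log2 fold changes between -0.43 and -0.37. Psmb4 fell only in GTMut (45.6 ± 3.6, 38.8 ± 4.4 and 45.96 ± 4.6 FPKM), and the mutants differed in it by 0.24 ± 0.09 on the log2 scale with overlapping libraries (adjusted p = 0.043). The fall was lost in 5 of 20 alternatives (median-ratio rescaling, and without WT replicate 3, WT replicate 4, GTMut replicate 1 or GTMut replicate 3) and the difference between the mutants in 12 of 20. Psmb3, which has 3 near-identical copies, did not pass in any comparison.

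Of the ATPase genes none rose. In GTMut 4 of 6 fell (Psmc1, Psmc2, Psmc4 and Psmc5), and in D272Mut 5 of 6 fell, with Psmc3 added. Psmc5 had the largest change in GTMut. It read 39.3, 35.5, 37.9 and 41.4 FPKM in WT, 25.2, 24.5, 26.7 and 27.6 in GTMut, and 29.2, 29.3, 28.8 and 27.8 in D272Mut. The genotypes did not overlap, with GTMut lowest and D272Mut between it and WT. The log2 fold changes of Psmc5 were -0.55 ± 0.05 in GTMut (adjusted p = 3.17e-07) and -0.41 ± 0.05 in D272Mut (adjusted p = 8.13e-06). Between the mutants it differed by 0.14 ± 0.05 (adjusted p = 0.0442), a call that was lost in 11 of 20 alternatives, among them without GTMut replicate 2 (0.12, adjusted p = 0.125).

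Psmc2 had the largest ATPase change in D272Mut. Its libraries read 23.8, 25.4, 25.6 and 24.99 FPKM in WT, 15.8, 18.5, 19.4 and 17.7 in GTMut, and 16.9, 16.8, 14.2 and 17.01 in D272Mut. All mutant libraries lay below WT and the mutants overlapped, with log2 fold changes of -0.46 ± 0.07 (adjusted p = 3.26e-05) and -0.59 ± 0.07 (adjusted p = 3.1e-06). Psmc1, which has 2 near-identical copies, fell from 42.0 ± 3.8 FPKM to 30.7 ± 1.2 and 33.2 ± 1.5, and Psmc4 from 22.5 ± 1.8 to 16.9 ± 1.7 and 17.7 ± 1.6. Psmc6 did not pass in either mutant (16.2 ± 1.8, 14.4 ± 1.1 and 15.7 ± 0.95 FPKM). Psmc3 did not pass in GTMut (log2 fold change -0.06 ± 0.09) and passed in D272Mut (-0.24 ± 0.09, adjusted p = 0.0349). That call was lost in 7 of 20 alternatives: with no filter, with median-ratio rescaling, with only the 2 genotypes in the fit, and without WT replicate 2, WT replicate 4, D272Mut replicate 3 or D272Mut replicate 4.

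All 3 other base genes fell in both mutants. Psmd4, a ubiquitin receptor, read 42.2, 48.4, 51.5 and 48.3 FPKM in WT, 40.2, 33.1, 32.2 and 39.8 in GTMut, and 32.04, 33.2, 33.1 and 34.2 in D272Mut. Every mutant library was below every WT library. Its log2 fold changes were -0.38 ± 0.08 (adjusted p = 0.000424) and -0.51 ± 0.08 (adjusted p = 3.86e-05). The scaffolds Psmd1 and Psmd2 fell less in GTMut, with log2 fold changes of -0.28 ± 0.07 and -0.17 ± 0.05, and by -0.34 ± 0.07 and -0.36 ± 0.05 in D272Mut. Psmd2 was also lower in D272Mut than in GTMut (-0.18 ± 0.05, adjusted p = 0.00649, libraries not overlapping) at 23.02 ± 0.53 beside 26.3 ± 1.4 FPKM. A transcribed processed pseudogene, Gm5422, is 96.368% identical to Psmd2 over 2726 bases and could share its reads.

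The lid split evenly. In each mutant 4 of its 8 genes rose (Psmd3, Psmd7, Psmd13 and Psmd14) and 4 fell (Psmd6, Psmd8, Psmd11 and Psmd12). For every one of them the mutant libraries did not overlap WT. Of all tested genes 38.3% rose and 39.2% fell in GTMut, and 36.3% rose and 39.5% fell in D272Mut. Libraries did not overlap for 72.9% and 69.1% of all genes. Psmd13, a structural lid subunit at chr7:140881968-140898643 on the plus strand of mm10, had the largest rise of all members. It read 1.77, 1.54, 1.06 and 1.17 FPKM in WT, 19.1, 15.6, 19.5 and 17.2 in GTMut, and 17.8, 16.8, 14.05 and 16.3 in D272Mut. WT was low in all 4 libraries, and the mutants overlapped. Means rose 12.9-fold in GTMut (log2 fold change 2.99 ± 0.11, adjusted p = 6.01e-12) and 11.7-fold in D272Mut (2.86 ± 0.11, adjusted p = 1.17e-11). Its exons overlap those of Sirt3 on the opposite strand, and Sirt3 stood at 2.01 ± 0.10, 2.34 ± 0.28 and 2.12 ± 0.86 FPKM. That is far below Psmd13 in the mutants but above the Psmd13 mean of 1.38 FPKM in WT. The part of shared reads in the WT level was not tested.

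Psmd14, the deubiquitinase of the lid, read 8.15, 6.97, 8.97 and 8.68 FPKM in WT, 19.2, 17.5, 18.4 and 19.7 in GTMut, and 13.7, 12.3, 13.6 and 16.1 in D272Mut. The genotypes did not overlap, with D272Mut between WT and GTMut. The rise was 2.29-fold in GTMut (log2 fold change 1.10 ± 0.09, adjusted p = 3.2e-08) and 1.70-fold in D272Mut (0.70 ± 0.09, adjusted p = 4.81e-06). The difference between the mutants was -0.41 ± 0.09 (adjusted p = 0.00194). Psmd7, with which Psmd14 forms the enzymatic pair, rose from 35.7 ± 1.4 FPKM to 73.2 ± 4.4 and 78.8 ± 7.1 (log2 fold changes 1.01 ± 0.06 and 1.12 ± 0.06). Psmd3 rose less, from 61.1 ± 1.4 to 76.9 ± 1.1 and 72.9 ± 4.5 FPKM.

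Among the lid genes that fell, Psmd11 read 16.4, 14.6, 14.2 and 15.9 FPKM in WT, 8.23, 7.14, 8.05 and 7.92 in GTMut, and 6.59, 8.24, 8.33 and 8.62 in D272Mut. Both mutants were well below WT and overlapped each other, with log2 fold changes of -0.88 ± 0.08 and -0.87 ± 0.08 (adjusted p = 2.24e-07 and 3.02e-07). Psmd11 has 2 near-identical copies, which could share its reads. Psmd12 fell from 30.3 ± 1.3 FPKM to 19.2 ± 2.8 and 18.9 ± 1.4. Psmd6 fell from 28.6 ± 1.6 to 19.1 ± 1.7 and 16.3 ± 1.2, and was lower in D272Mut than in GTMut by 0.21 ± 0.07 on the log2 scale (adjusted p = 0.0308), a call lost in 5 of 20 alternatives. Psmd8, the most abundant subunit transcript in WT, fell from 81.6 ± 3.4 to 69.3 ± 4.0 and 65.7 ± 6.3 FPKM. Relative to Psmd12 in the same library, Psmd13 was at 0.0456 ± 0.010, 0.941 ± 0.14 and 0.862 ± 0.11.

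**Figure D3:**
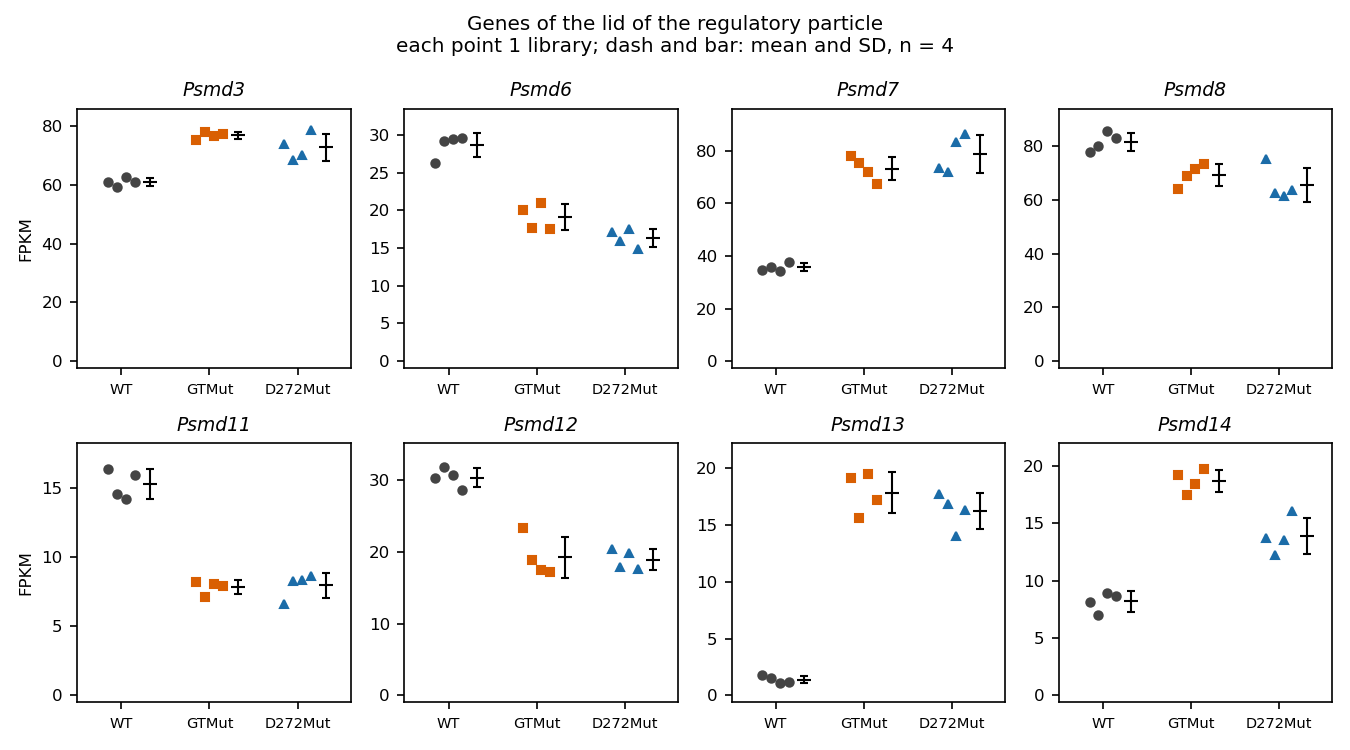
FPKM of the 8 lid genes, each point 1 library, with mean and SD (n = 4) beside the points of each genotype. Psmd3, Psmd7, Psmd13 and Psmd14 are higher and Psmd6, Psmd8, Psmd11 and Psmd12 lower in both mutants; Psmd13 starts from 1.06 to 1.77 FPKM in WT.

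Ordered by level, the 31 subunit transcripts of WT ran from Psmd8 at 81.6 FPKM to Psma3 and Psmd13 at 1.54 and 1.38. The middle of the order was a continuum, since 23 of 30 neighbouring pairs in WT, 23 in GTMut and 25 in D272Mut had overlapping libraries. The top changed from Psmd8 to Psmb5 in both mutants, and Psmb5 was the top gene without overlap with the next (Psmd3 in GTMut, Psmd7 in D272Mut). At the bottom, Psmd13 left the end of the order to stand beside Psmc2 in both mutants, and Psma3 and Psmd11 became the lowest. The spread over the 31 genes, as the SD of log2(mean FPKM + 1), was 1.19, 1.06 and 1.10.

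**Figure D4:**
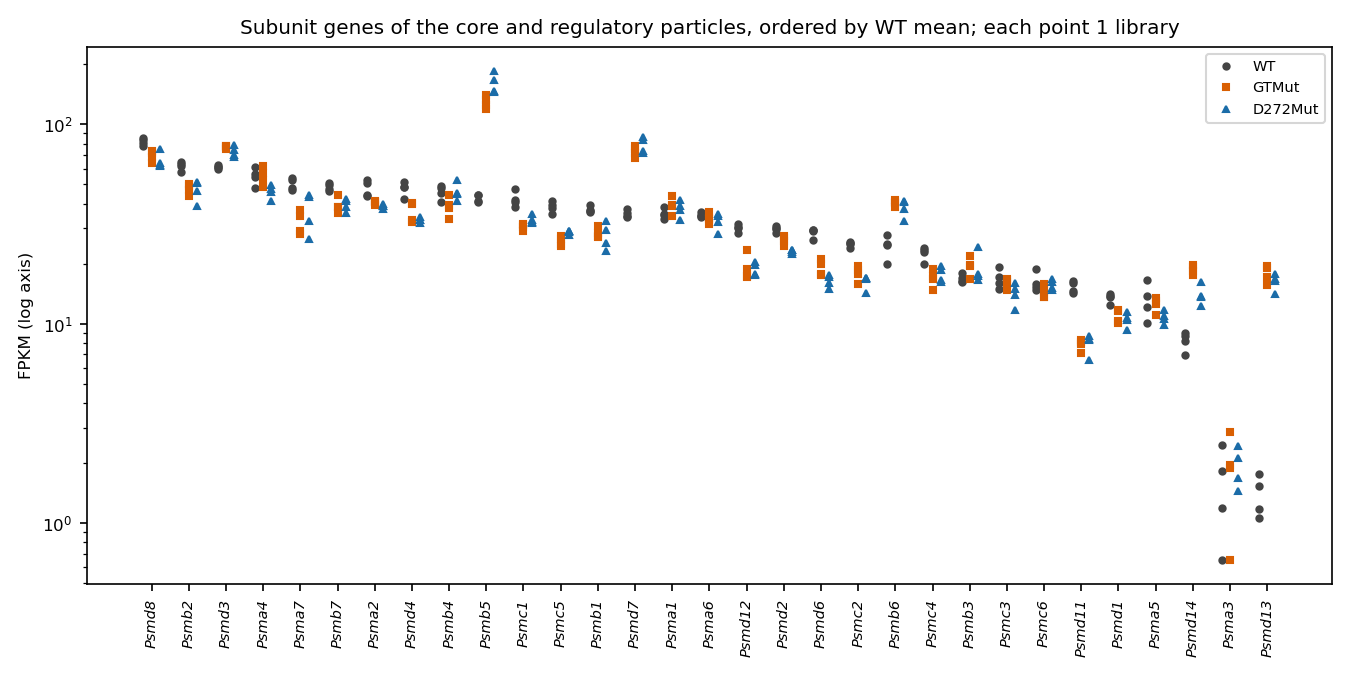
FPKM on a log axis of the 31 core and regulatory particle genes in every library, ordered by the WT mean from left to right, with WT as circles, GTMut as squares and D272Mut as triangles. Psmb5, Psmd7, Psmd14 and Psmd13 stand above their WT place in both mutants, and most other genes lie close to or below it.

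Assembly chaperones moved both ways, with 3 of 7 higher and 3 lower in GTMut and 4 higher and 2 lower in D272Mut. Of the 4 chaperones of the core particle, Psmg1, Psmg2 and Psmg3 rose in both mutants and Psmg4 did not pass. Psmg2, the partner of Psmg1 in building the alpha ring, read 0.439, 0.572, 0.142 and 0.755 FPKM in WT, 5.57, 2.81, 5.32 and 2.55 in GTMut, and 2.41, 2.68, 2.74 and 2.76 in D272Mut. WT was below 1 FPKM in all 4 libraries and every mutant library was above it, so the filter admitted Psmg2 through the mutants alone and favoured a rise; it is among the 12 rises and the 5 and 4 of at least 2-fold. The log2 fold changes were 1.74 ± 0.20 and 1.32 ± 0.20, and on this scale they understate the 8.52-fold and 5.55-fold differences of the means. Psmg3 rose from 19.2 ± 1.1 to 28.8 ± 2.1 and 32.2 ± 3.7 FPKM, and Psmg1 from 15.3 ± 0.71 to 18.5 ± 0.86 and 18.8 ± 1.9, a rise whose calls were lost under quantile normalization.

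Of the chaperones of the base, Psmd5 and Psmd10 fell in both mutants. Psmd5 went from 44.8 ± 1.7 FPKM in WT to 27.7 ± 1.1 and 30.7 ± 2.3, and Psmd10 from 37.8 ± 1.3 to 30.5 ± 3.0 and 27.8 ± 2.9. Psmd9, which guides an early module of the ATPase ring, read 57.5, 60.1, 68.1 and 62.6 FPKM in WT, 48.7, 48.4, 54.3 and 50.8 in GTMut, and 96.5, 81.4, 86.6 and 96.4 in D272Mut. GTMut lay wholly below WT and D272Mut wholly above it. Psmd9 was the only member that passed in opposite directions, with log2 fold changes of -0.29 ± 0.07 in GTMut (adjusted p = 0.00109) and 0.53 ± 0.07 in D272Mut (adjusted p = 4.86e-06). The difference between the mutants was 0.82 ± 0.07 (adjusted p = 5.45e-07).

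Activators and the inhibitor did not move as a group. Psme3, the nuclear activator, was the most abundant member in WT. It read 231, 218, 218 and 222 FPKM in WT, 139.9, 137, 141 and 133 in GTMut, and 117, 132, 129.5 and 125 in D272Mut. The genotypes did not overlap, with D272Mut lowest. Its log2 fold changes were -0.69 ± 0.04 and -0.82 ± 0.04 (adjusted p = 1.18e-09 and 2.14e-10). The mutants differed by -0.13 ± 0.04 (adjusted p = 0.0188), a call that was lost without GTMut replicate 3 (-0.12, adjusted p = 0.0514).

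Psme2b, a near copy of the interferon-inducible activator gene Psme2, read 8.84, 11.3, 10.3 and 12.7 FPKM in WT, 16.8, 22.8, 16.6 and 19.2 in GTMut, and 12.7, 12.9, 12.3 and 13.3 in D272Mut. GTMut stood above both other genotypes, which overlapped. It rose in GTMut (log2 fold change 0.75 ± 0.11, adjusted p = 1.96e-05), had 0.24 ± 0.11 in D272Mut (adjusted p = 0.0577), and was lower in D272Mut than in GTMut (-0.51 ± 0.11, adjusted p = 0.00189). Psme2 and Psme2b are 99.370% identical over 794 bases, so the division of reads between them is uncertain. Psme2 read 0.542, 0, 1.05 and 0.700 FPKM in WT, 1.38, 0.771, 0.896 and 0.498 in GTMut, and 0.435, 0.472, 0.199 and 0.455 in D272Mut, and did not pass in any comparison. Psme1, the partner of Psme2, reached at most 0.267 FPKM and was listed at 0 in 9 of 12 libraries. Psme4, the large activator linked to histone degradation, did not pass, with 18.6 ± 1.0, 18.3 ± 0.36 and 18.1 ± 0.80 FPKM. Psmf1, which inhibits the core particle in vitro, rose from 71.5 ± 1.6 to 98.0 ± 2.2 and 101 ± 3.5 FPKM (log2 fold changes 0.45 ± 0.03 and 0.49 ± 0.03).

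Psmc3ip read 7.10, 7.23, 8.89 and 8.42 FPKM in WT, 3.55, 4.88, 4.05 and 4.35 in GTMut, and 4.69, 3.63, 3.42 and 3.28 in D272Mut. All mutant libraries were below WT, with log2 fold changes of -0.78 ± 0.11 (adjusted p = 2e-05) and -0.91 ± 0.11 (adjusted p = 4.53e-06). Its exons overlap those of Mlx on the opposite strand, which fell from 22.4 ± 0.75 to 11.97 ± 0.78 and 12.8 ± 1.8 FPKM. Without strand, reads of the overlap cannot be told apart.

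The mutants differed from each other at few members. In D272Mut against GTMut 4 members were higher (Psmb4, Psmb5, Psmc5 and Psmd9) and 6 lower (Psma4, Psmd2, Psmd6, Psmd14, Psme2b and Psme3), which is 22.2% of the 45 beside 39.6% of all tested genes. Of all genes 19.3% were higher and 20.2% lower, and the members' median log2 fold change was -0.05 beside -0.01. No member differed 2-fold on the log2(FPKM + 1) scale; by mean FPKM, Psme2 stood at 0.390 in D272Mut and 0.886 in GTMut (ratio 0.441) and did not pass. Of the 10 calls, those of Psmb4, Psmc5, Psma4, Psmd6 and Psme3 were lost under at least 1 alternative, while Psmb5, Psmd9, Psmd2, Psmd14 and Psme2b kept theirs under every alternative in which they were tested. Among the genes that kept their calls, Psmb5, Psmd2 and Psme2b have a near-identical copy.

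The other genes of the pathway, 35 of which were tested, also moved both ways. In GTMut 14 rose and 16 fell, and in D272Mut 12 rose and 17 fell, while between the mutants 7 were higher and 9 lower in D272Mut. Of these genes 85.7%, 82.9% and 45.7% were called, beside 77.5%, 75.7% and 39.6% of all genes. The remaining subunits outside the Psm names were Shfm1 of the lid, which fell from 65.2 ± 4.3 FPKM to 54.8 ± 4.2 and 49.7 ± 3.0, and the ubiquitin receptor Adrm1, which did not pass in any comparison (30.3 ± 2.8, 28.2 ± 2.4 and 28.2 ± 2.2). Pomp, the chaperone that completes the beta ring, read 32.2, 36.7, 38.9 and 37.3 FPKM in WT, 19.5, 16.5, 18.7 and 26.6 in GTMut, and 22.7, 15.8, 22.1 and 17.01 in D272Mut. Both mutants were below WT in all libraries, with log2 fold changes of -0.82 ± 0.14 and -0.88 ± 0.14 (adjusted p = 8.85e-05 and 4.99e-05).

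Transcription factors known to drive proteasome genes went opposite ways. Nfe2l1, which raises proteasome genes when proteolysis is impaired, fell from 173 ± 7.0 FPKM in WT to 93.4 ± 1.5 and 104 ± 4.6 (log2 fold changes -0.88 ± 0.04 and -0.73 ± 0.04). Nfe2l2, its relative in the oxidative stress response, rose from 9.99 ± 1.3 to 23.6 ± 1.0 and 45.98 ± 0.80 FPKM (1.17 ± 0.07 and 2.10 ± 0.07), and the mutants differed by 0.93 ± 0.07 (adjusted p = 3.12e-07). Hsf2, a heat shock factor, rose from 1.85 ± 0.19 to 13.3 ± 0.91 and 16.7 ± 1.3 FPKM (2.33 ± 0.08 and 2.63 ± 0.08). Its relative Hsf1 fell from 39.0 ± 1.3 to 35.7 ± 0.51 and 29.0 ± 1.4 FPKM (-0.12 ± 0.04 and -0.42 ± 0.04).

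Both deubiquitinases that dock on the regulatory particle moved, in opposite directions. Usp14 rose from 12.7 ± 1.1 FPKM to 23.1 ± 1.3 and 19.01 ± 1.4 (log2 fold changes 0.81 ± 0.07 and 0.54 ± 0.07), and Uchl5 fell from 6.44 ± 0.91 to 4.18 ± 0.30 and 3.92 ± 0.84 (-0.52 ± 0.13 and -0.60 ± 0.13). Uba1, the main ubiquitin-activating enzyme, fell from 49.8 ± 1.8 to 17.6 ± 0.45 and 20.3 ± 1.1 FPKM (-1.45 ± 0.05 and -1.26 ± 0.05), and the alternative enzyme Uba6 rose from 3.66 ± 0.34 to 7.82 ± 0.98 and 8.14 ± 0.86. Faf2, a cofactor of the segregase Vcp at the endoplasmic reticulum, had the largest rise of the list, with 0.710, 0.735, 0.807 and 0.916 FPKM in WT, 24.7, 28.5, 29.0 and 27.5 in GTMut, and 17.7, 19.9, 18.3 and 17.01 in D272Mut. The genotypes did not overlap, with GTMut highest, and the log2 fold changes were 3.99 ± 0.07 and 3.42 ± 0.07. Faf2 reached 1 FPKM in mutant libraries only, so the filter favoured a rise.

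**Figure D5:**
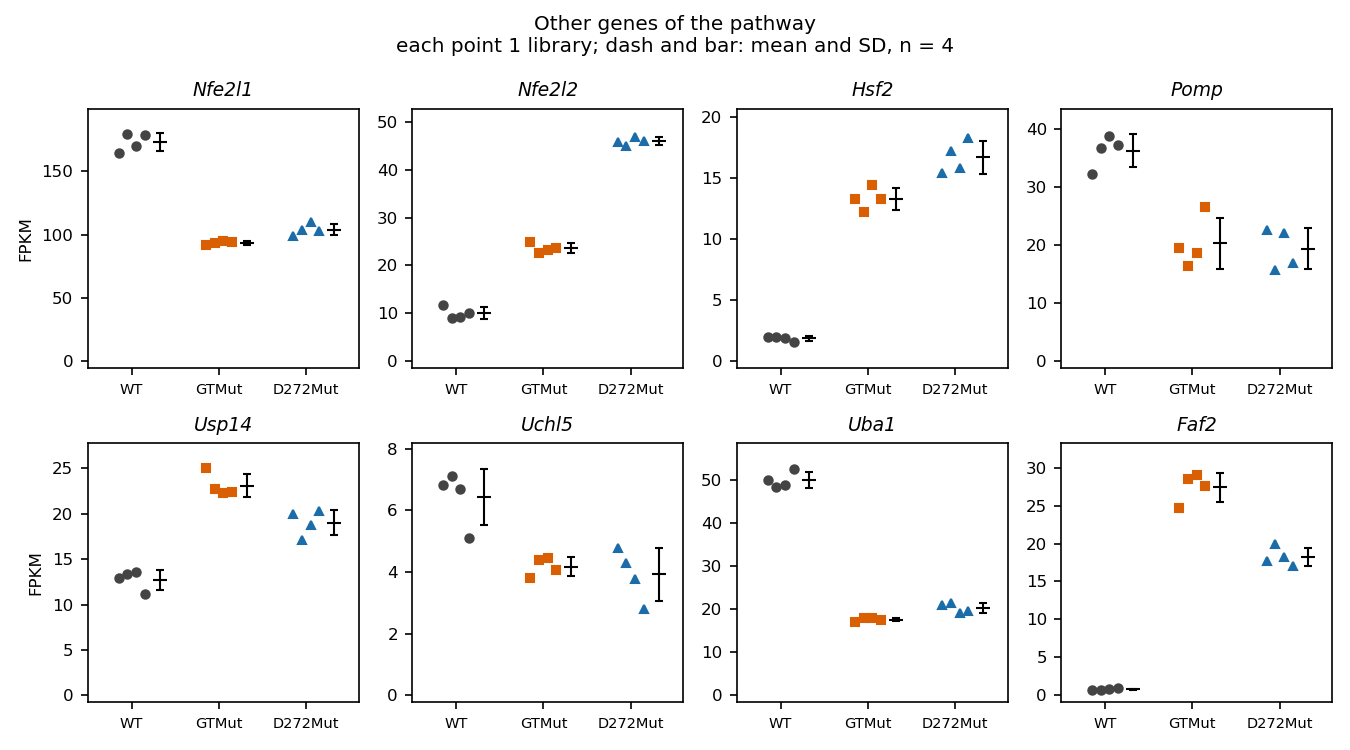
FPKM of 8 other genes of the ubiquitin and proteasome pathway, each point 1 library, with mean and SD (n = 4) beside the points. Nfe2l1, Pomp, Uchl5 and Uba1 are lower and Nfe2l2, Hsf2, Usp14 and Faf2 higher in all libraries of both mutants than in WT.

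The authors' deposited table of cuffdiff tests called 12 members higher and 19 lower in GTMut and 12 higher and 20 lower in D272Mut at a q-value under 0.05, and 3 higher and 3 lower between the mutants. Over the 12980 tested genes the authors' deposited table called 34.8% higher and 34.3% lower in GTMut, 33% higher and 33% lower in D272Mut, and 17.6% higher and 17% lower between the mutants. All of these members were called in the same direction by the limma fit, and 0 in the opposite direction.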

How the data were processed

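The FPKM values were deposited by the authors. Per the design text and the submitters' notes on processing, trimmed reads (150 bp, both fragment ends) were aligned to mm10 with TopHat2 2.0.13, and FPKM were computed with Cufflinks 2.2.1, which normalizes to transcript length and library size. Reads of near-identical or overlapping genes can be divided between them in this way, and no source used here says whether strand was used. The authors also deposited log2 ratios, p-values and q-values from cuffdiff, used here only for comparison.

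Genes that reached 1 FPKM in any library (12980 of 24254) were analysed as log2(FPKM + 1), a scale that understates changes of low genes. All 12 libraries were fitted with limma 3.58.1 in R 4.3.3 with genotype as the only term and an intensity trend. Tests were two-sided and Benjamini-Hochberg adjusted over 12980 genes, with a threshold of 0.05. Fold changes carry the limma SE and levels the SD of 4 libraries. FPKM hold no totals, so relative depth came from the step of 1 fragment among genes under 0.3 FPKM, and counting intervals could not be given.

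Members and lists were chosen with earlier results of these data known. Values in every library are given for the proteolytic genes and their counterparts, and for Psma7 and Psma8. They are also given for the largest non-overlapping change of each role group in each mutant and the 3 smallest p between the mutants. Psmd11 was added after its values were seen, and Psme2 also lies outside this rule. Of the other pathway genes the 4 with the smallest p in each mutant, Nfe2l1, Pomp, Usp14 and Uchl5 were always named. Others (Shfm1, Adrm1, Uba6, Hsf1) were added after their values were seen. Near-identical copies were sequences of at least 95% identity over at least 200 bases elsewhere in the GENCODE transcripts; 10 members had one and 4 shared exons with another gene. Promoters came from RefSeq and were used where the start lay within 1000 bases of the gene's locus in the table. Alternatives varied the pseudocount, filter, scaling, replicate block, trend, samples in the fit and each library in turn.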

Additional observations from a re-analysis of the deposited data

Results flagged for a closer look

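Single libraries stood apart for 5 members, of 135 combinations of member and genotype examined, where chance gives about 1 in 20. Psmb3 was highest in D272Mut replicate 1 at 24.3 FPKM, with the other D272Mut libraries at 16.5 to 17.7. Psmc2 was lowest in D272Mut replicate 3 at 14.2 FPKM, beside 16.8 to 17.01. Psmd6 was lowest in WT replicate 1 at 26.3 FPKM, beside 29.2 to 29.6. Psmd8 was highest in D272Mut replicate 1 at 75.1 FPKM, beside 61.5 to 63.8. Psme2 was lowest in D272Mut replicate 3 at 0.199 FPKM, beside 0.435 to 0.472. D272Mut replicate 1 was the shallowest library, at 0.444 of the deepest, and the part of depth in these values was not tested.

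Psmd9 moved in opposite directions in the mutants, and its effect against WT was higher in D272Mut than in GTMut by 0.82 on the log2 scale (limma, adjusted p = 5.45e-07), with all 4 GTMut libraries below WT and all 4 D272Mut libraries above it.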

How the results depend on the processing

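The counts of members higher and lower against WT stayed within 1.5 times of 12 and 22 under all alternatives run. The members' median log2 fold change in GTMut, -0.17, was -0.093 with no filter, -0.23 at a mean FPKM of at least 5, -0.13 with median-ratio rescaling, -0.32 with quantile normalization and -0.20 to -0.11 when a library was left out. In D272Mut, -0.24, it was -0.12 with no filter, -0.36 with quantile normalization and -0.30 to -0.20 when a library was left out. Members higher between the mutants, 4, were 2 with no filter, with the replicate block and with no intensity trend, and 2 to 4 when a library was left out (2 without WT replicate 3, GTMut replicate 1, GTMut replicate 3 or D272Mut replicate 1). Members lower, 6, were 3 to 7 when a library was left out (3 without GTMut replicate 3) and 3 among the 32 members without a near-identical copy or exon overlap, a restriction chosen after seeing the data that leaves fewer genes. The cause of the other changes was not tested.

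No member's call turned direction. Changes of sign in single genes were examined only for those named by rule, which leaves out Psmd11 and Psme2. Among the genes examined, none of the values that changed sign was called. In D272Mut against WT this was Psme2b under quantile normalization (-0.024). Between the mutants Psmb7 changed sign without GTMut replicate 4 (-0.030), D272Mut replicate 1 (-0.014) or D272Mut replicate 4 (-0.021). Also between the mutants, Psmb11 did so without D272Mut replicate 2 (-0.0027) and Uchl5 without D272Mut replicate 4 (0.029). Pomp did so there without GTMut replicate 4 (0.071) or D272Mut replicate 2 (0.029). With each library left out in turn these ranged from -0.030 to 0.065 for Psmb7, -0.0027 to 0.082 for Psmb11, -0.148 to 0.071 for Pomp and -0.171 to 0.029 for Uchl5. Deviations of same-numbered libraries correlated at -0.36 to 0.09 across genes, and 2 of 12 libraries correlated best with their own number. Nothing in the labels says that the numbers pair libraries, and these values cannot decide whether same-numbered libraries shared a collection or batch. Under the replicate block Psme2b (0.24, adjusted p = 0.0252) and Psma5 passed in D272Mut against WT. Absolute depth is unknown, which limits what can be said of members near 0.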
